A study of Mus musculus with 6 samples.

Results

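The core antiviral effectors of the interferon response were followed in long-term haematopoietic stem cells from mouse bone marrow. The list held 10 genes, chosen with earlier results of these data known: Ifit1, Ifit2, Ifit3, Isg15, Usp18, Ifi44, Rtp4, Bst2 and the neighbouring pair Rsad2 and Cmpk2. Of these, 8 genes had a probe set that names 1 gene, and they were measured by 12 probe sets of the 34945 single-gene probe sets on the array, which stand for 18193 genes. The only probe set annotated to Isg15 also names another gene and was not used, and no probe set is annotated to Ifi44 in the table used here, so neither gene has a value below.

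The groups were 3 arrays from Irf8-/- mice, called knockout, and 3 arrays from Irf8+/+ mice, called wildtype. All cells were labelled 3 weeks and untreated, and were sorted as lineage- Sca-1+ c-kit+ CD48- CD150+, the surface pattern of long-term haematopoietic stem cells. The labels call the arrays biological replicates and do not name the Irf8 allele, the sex of the mice or whether marrow was pooled, so p-values measure the spread between these 3 samples a group. Values are log2 expression, 1 per probe set and array on an Affymetrix mouse genome array, and the comparison asks which genes differ between knockout and wildtype stem cells.

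Type I interferons bind the receptor chains IFNAR1 and IFNAR2, whose kinases JAK1 and TYK2 activate a transcription factor complex that includes IRF9. This complex binds interferon-stimulated response elements in the promoters of antiviral genes, and IRF family proteins such as IRF8 recognise related letters. The IFIT proteins bind foreign RNA, viperin (Rsad2) makes a chain-terminating nucleotide, ISG15 is attached to proteins like ubiquitin, and tetherin (Bst2) holds budding virions at the cell surface. Many of these genes have a basal level in stem cells without infection.

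The promoter windows show the response element letters that 5 of these genes share. RefSeq windows (GRCm38.p6) from 250 bases before to 50 bases after a gene's start were available for 8 of the 10 genes, and Usp18 and Rtp4 had none. The core of the response element, written GAAANN and GAAA in a row with N for any base, was searched on both strands with overlapping matches kept. It was found in 5 of the 8 genes: Ifit1, Ifit3, Isg15, Rsad2 and Bst2. Counted by gene, 1079 of all 27025 genes with a window held it, and counted by window, 3.44% of all 32851 windows of the same length did. The windows of Ifit2, Cmpk2 and Ifi44 held no match, which says only that these letters were not in that stretch. The ETS-IRF element, GGAANN and GAAA in a row, was found in 1 gene of the list, Ifi44. It was found in 853 of all 27025 genes and in 2.72% of all windows. The 4 windows printed here belong to measured genes with different array patterns, and the capitals mark the matches to the response element core or its reverse complement. Each is written 5′ to 3′ on the gene's own strand: Rsad2 at chr12:26456403-26456702 (minus strand), Ifit1 at chr19:34640639-34640938 (plus strand), Ifit3 at chr19:34583279-34583578 (plus strand) and Bst2 at chr8:71537423-71537722 (minus strand).
Rsad2: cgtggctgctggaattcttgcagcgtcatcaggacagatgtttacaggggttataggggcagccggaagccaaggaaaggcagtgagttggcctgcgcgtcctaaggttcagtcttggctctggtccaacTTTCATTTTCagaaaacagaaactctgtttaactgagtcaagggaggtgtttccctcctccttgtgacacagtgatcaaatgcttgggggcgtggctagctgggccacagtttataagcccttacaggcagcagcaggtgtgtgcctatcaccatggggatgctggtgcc
Ifit1: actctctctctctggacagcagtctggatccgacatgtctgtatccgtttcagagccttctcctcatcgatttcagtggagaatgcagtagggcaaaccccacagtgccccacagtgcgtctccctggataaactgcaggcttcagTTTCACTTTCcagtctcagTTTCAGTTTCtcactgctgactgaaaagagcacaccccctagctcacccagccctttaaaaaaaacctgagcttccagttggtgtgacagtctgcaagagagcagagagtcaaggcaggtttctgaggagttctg
Ifit3: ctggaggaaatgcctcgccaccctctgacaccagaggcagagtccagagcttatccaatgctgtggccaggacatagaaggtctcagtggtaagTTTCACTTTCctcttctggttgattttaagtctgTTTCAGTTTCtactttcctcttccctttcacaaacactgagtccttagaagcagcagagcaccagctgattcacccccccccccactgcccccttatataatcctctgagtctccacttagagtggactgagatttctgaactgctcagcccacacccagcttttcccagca
Bst2: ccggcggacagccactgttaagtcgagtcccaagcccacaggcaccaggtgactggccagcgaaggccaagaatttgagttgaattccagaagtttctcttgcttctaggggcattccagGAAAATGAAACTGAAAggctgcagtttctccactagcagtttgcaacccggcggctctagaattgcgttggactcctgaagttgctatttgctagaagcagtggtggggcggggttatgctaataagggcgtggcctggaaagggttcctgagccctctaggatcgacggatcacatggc

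The match in Rsad2 begins 120 bases before the start. Ifit1 has matches beginning 104 and 85 bases before its start, and Ifit3 at 156 and 122 bases. Both genes carry the same pair of letter strings, TTTCACTTTC followed by TTTCAGTTTC. In Bst2 the matches, at 130 and 124 bases, overlap and run in the other orientation. The 4 genes did not have 1 common pattern over the arrays, as their values show.

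The Irf8 probe sets did not read lower in knockout. The brighter probe set read 4.91, 6.39 and 6.50 in knockout replicates 1 to 3, against 4.98, 6.43 and 5.16 in wildtype replicates 1 to 3, and the groups overlap. Because the deleted part of Irf8 is not described in the labels, this checks nothing about the labels, and directions refer to arrays as labelled. Array medians ran from 4.85 to 4.96. Mean correlations with the other arrays ran from 0.835 in knockout replicate 3 to 0.880 in wildtype replicate 1, and wildtype replicate 3, at 0.867, lay inside that range. All 3 probe sets of Xist, which coats the inactive X chromosome, were at 10.62 or higher in knockout replicate 1 and wildtype replicate 3, and at 7.60 or lower in the other arrays. Cd48, which encodes the CD48 of the gate and was chosen after its values were seen, read 7.60, 9.42 and 3.55 in knockout, against 4.54, 4.31 and 3.13 in wildtype. Over the 11 stem cell sort marker probe sets, 7 differences were above 0 and 4 below, where 44.6% of single-gene probe sets lay below. Without wildtype replicate 3, 5 were above 0 and 6 below, and their median moved from 0.17 to -0.13. Cd34, also chosen after its values were seen, read 9.06, 10.02 and 9.91 in knockout, against 8.16, 7.68 and 10.02 in wildtype. Its difference was 1.04 (SE 0.70), and 1.74 (SE 0.54) without wildtype replicate 3. Flt3 read 7.99, 8.56 and 10.55 in knockout, against 6.93, 6.19 and 6.63 in wildtype. Procr read 10.21, 9.80 and 9.38 in knockout, against 10.24, 10.63 and 10.77 in wildtype. Differences were -0.45 to 0.17 for Slamf1 (CD150), with SEs of 0.61 to 1.40. They were -0.36 (SE 0.64) and 0.44 (SE 0.63) for Kit. Slamf1 1425569_a_at read 9.02, 8.49 and 4.71 in knockout, against 5.97, 9.11 and 6.63 in wildtype. Kit 1415900_a_at read 8.50, 8.45 and 9.14 in knockout, against 9.02, 8.65 and 7.10 in wildtype. With these SEs, the differences do not show that Slamf1 and Kit were level. Sums of log2 levels over 11 neutrophil marker probe sets were 97.7, 96.1 and 124.5 in knockout, against 83.7, 86.4 and 73.1 in wildtype, without overlap. Wildtype replicate 3 had the lowest neutrophil sum and the highest sum over the effector probe sets. Sums over 25 dendritic cell marker probe sets, Bst2 among them, were 136.4 to 147.0 in knockout and 130.0 to 133.3 in wildtype, also without overlap. In the other blood cell marker lists the groups overlapped. Monocyte and macrophage sums were 70.9 to 77.7 in knockout and 66.6 to 79.9 in wildtype. B cell sums were 60.4 to 66.6 and 61.6 to 64.0, in the same order. Sums were 57.5 to 64.8 and 55.6 to 58.8 for T and NK cell markers, and 68.7 to 78.7 and 71.8 to 78.2 for erythroid markers. The part of these markers in the results was not tested. In bulk samples, fewer cells of a type and less RNA per cell cannot be told apart.

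Across the family, most effectors read lower in the knockout arrays, but no single difference passed the threshold. Of the 12 probe sets, 9 had a knockout minus wildtype difference below 0 and 3 above. The median difference was -0.89 on the log2 scale, beside 0.06 over all single-gene probe sets, of which 44.6% lay below 0. With limma and Benjamini-Hochberg adjustment over 45037 probe sets, 0 of the 12 passed an adjusted p of 0.05 (smallest 0.906), and 0 of all 45037 did (0%; smallest 0.410). At an unadjusted p under 0.05, 1 of the 12 was lower and 0 higher, where 2.42% of single-gene probe sets were lower and 2.25% higher. All 3 knockout arrays lay below all 3 wildtype arrays in 3 of the 12 probe sets, against 4.48% of single-gene probe sets, and above them in 0, against 6.45%. The 12 probe sets share 8 genes and 6 arrays, and are not independent. Because the list was chosen with earlier results of these data known, these counts and shares are a description only.

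**Figure D1:**
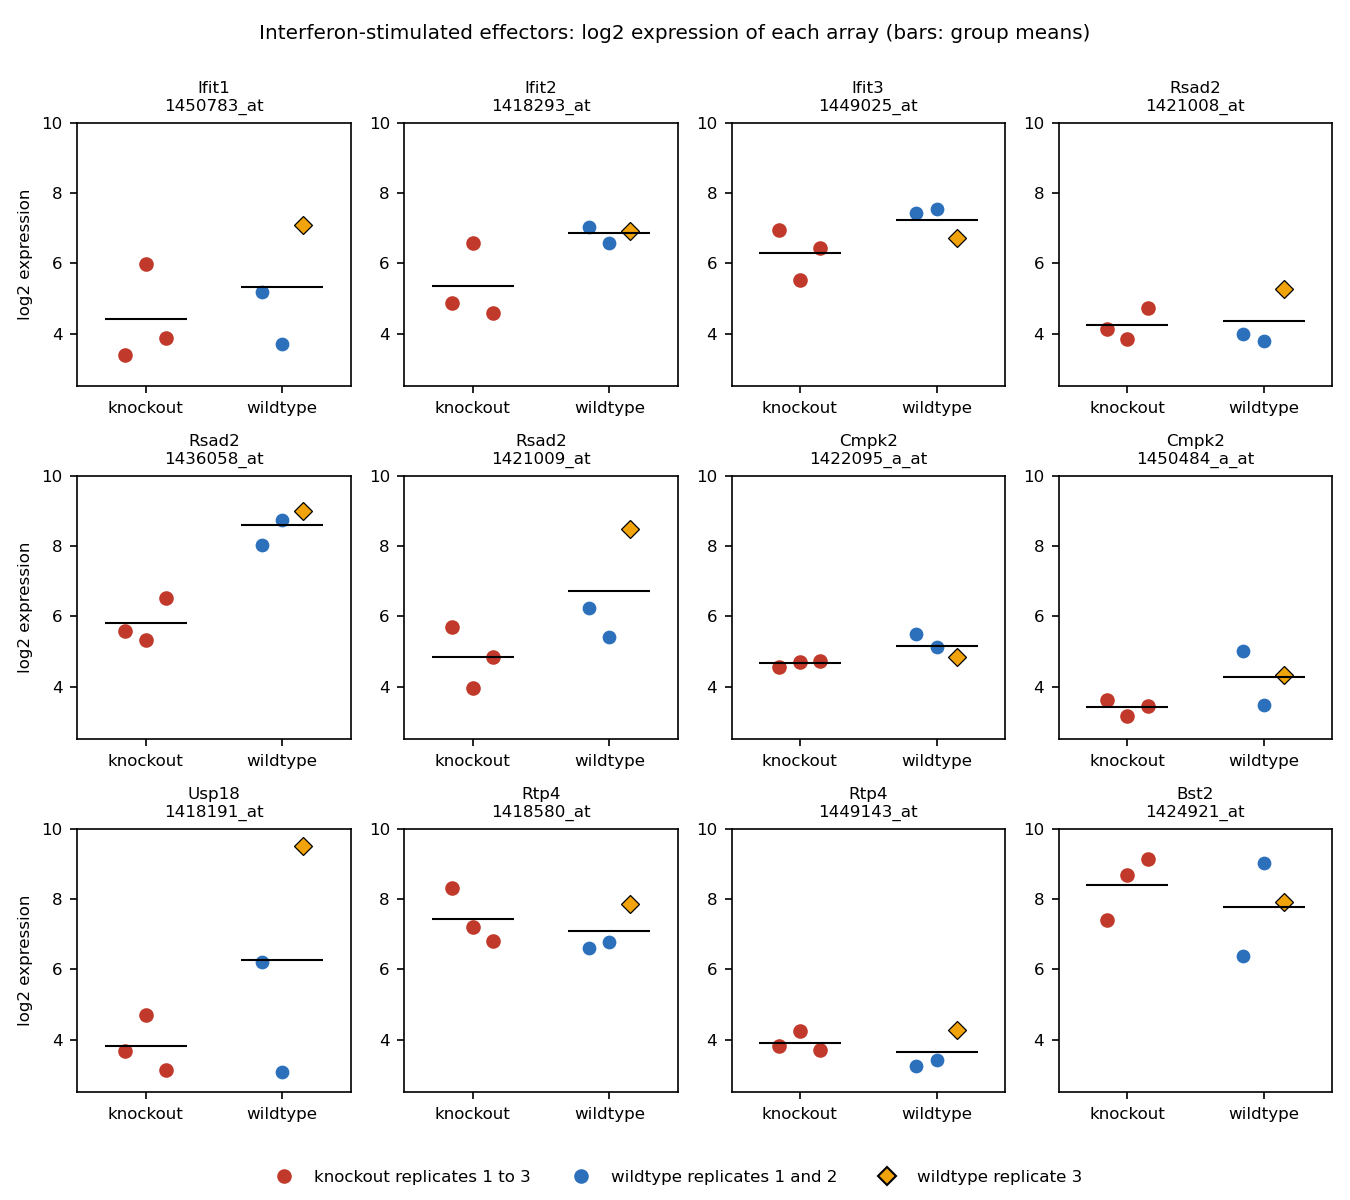
Log2 expression (vertical axis) of the 12 effector probe sets, 1 panel each, in knockout arrays (left, red) and wildtype arrays (right, blue), with wildtype replicate 3 as an orange diamond and bars for group means. The groups are apart in Rsad2 1436058_at, Cmpk2 1422095_a_at and, by 0.007, in Ifit2, and wildtype replicate 3 is the highest of all 6 arrays in 6 panels.

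Rsad2 encodes viperin, a radical enzyme that converts a nucleotide into a chain terminator for viral polymerases, and its brightest probe set separated the genotypes most clearly. Rsad2 1436058_at read 5.57, 5.34 and 6.52 in knockout, against 8.04, 8.75 and 8.998 in wildtype. The highest knockout array lay 1.52 below the lowest wildtype array. The difference was -2.79 (SE 0.56, 95% interval -4.14 to -1.44), or 6.90-fold lower in knockout, with an unadjusted p of 0.00207 (limma, adjusted p = 0.906). In its dimmer probe sets the groups overlapped. Rsad2 1421009_at read 5.70, 3.96 and 4.85 in knockout, against 6.24, 5.42 and 8.49 in wildtype. In that probe set knockout replicate 1 lay above wildtype replicate 2, and the difference was -1.88 (SE 0.90, interval -4.03 to 0.27). Rsad2 1421008_at read 4.15, 3.84 and 4.73 in knockout, against 3.98, 3.79 and 5.28 in wildtype, with a difference of -0.11 (SE 0.47). This last probe set lay near or under the array medians.

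Cmpk2, the mitochondrial nucleotide kinase encoded beside Rsad2, read lower in knockout in both probe sets, by smaller amounts. Cmpk2 1422095_a_at read 4.57, 4.70 and 4.72 in knockout, against 5.51, 5.12 and 4.85 in wildtype, with a gap of 0.126 between the groups. Its difference was -0.50 (SE 0.31, interval -1.23 to 0.24). Here wildtype replicate 3 was the lowest wildtype array, the reverse of its place for Rsad2. Cmpk2 1450484_a_at read 3.63, 3.15 and 3.45 in knockout, against 5.02, 3.47 and 4.34 in wildtype, and wildtype replicate 2 fell inside the knockout range. Its difference was -0.87 (SE 0.41, interval -1.85 to 0.11), and it was -0.50 without wildtype replicate 1. Cmpk2 1422095_a_at differed by -0.32 without that array. Both probe sets read near or below the array medians.

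The IFIT genes, which encode RNA-binding proteins with tetratricopeptide repeats, each had a different array pattern. Ifit2 read 4.87, 6.58 and 4.60 in knockout, against 7.05, 6.59 and 6.93 in wildtype. The wildtype arrays lay close together (6.85 ± 0.24, SD, n = 3), whereas the knockout arrays were spread (5.35 ± 1.08, SD, n = 3), with replicate 2 just 0.007 under the lowest wildtype array. The difference was -1.504 (SE 0.63, interval -3.01 to 0.006), with an adjusted p of 0.906 in limma. Ifit3, which in human cells binds and stabilises IFIT1, read 6.94, 5.52 and 6.43 in knockout, against 7.44, 7.56 and 6.72 in wildtype. Knockout replicate 1 lay above wildtype replicate 3 by 0.22, and the difference was -0.94 (SE 0.57, interval -2.32 to 0.43). Ifit1, which recognises RNA ends that lack the host's cap methylation, read 3.40, 5.98 and 3.87 in knockout, against 5.18, 3.71 and 7.09 in wildtype. The Ifit1 groups overlapped widely, and the difference was -0.91 (SE 1.03, interval -3.38 to 1.56). Without knockout replicate 2 the difference was -0.55 for Ifit3 and -1.69 for Ifit1. Ifit1 differed by -0.40 without knockout replicate 1 and by -1.72 without wildtype replicate 2.

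Usp18, the protease that removes ISG15 from proteins and also dampens signalling at the interferon receptor, varied most of the 12 probe sets among the wildtype arrays. It read 3.67, 4.70 and 3.13 in knockout, against 6.20, 3.09 and 9.50 in wildtype. Wildtype replicate 2 was the lowest and wildtype replicate 3 the highest of the 6 arrays. All knockout values and that of wildtype replicate 2 lay under the array medians. The wildtype SD was 3.21 (n = 3), a spread exceeded by 64 of the 34945 single-gene probe sets, whereas the knockout SD was 0.80 (n = 3). The difference was -2.43 (SE 1.53, interval -6.11 to 1.24), a size below that of Rsad2 1436058_at alone, with the widest interval of the 12. It was -4.02 without wildtype replicate 2.

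Rtp4 and Bst2 did not read lower in knockout. Rtp4, an interferon-induced chaperone of membrane receptors, read 8.32, 7.21 and 6.81 in knockout, against 6.61, 6.77 and 7.87 in wildtype, in its brighter probe set, 1418580_at. The difference was 0.36 (SE 0.64, interval -1.17 to 1.90). Its other probe set, 1449143_at, read 3.81, 4.24 and 3.71 in knockout, against 3.26, 3.43 and 4.29 in wildtype, a difference of 0.26 (SE 0.33, interval -0.53 to 1.04). Bst2, which is also a surface antigen of plasmacytoid dendritic cells in mice, read 7.40, 8.69 and 9.15 in knockout, against 6.37, 9.04 and 7.91 in wildtype. Its difference was 0.64 (SE 0.84, interval -1.38 to 2.66). These intervals include decreases of the size read for Cmpk2 1422095_a_at and do not show that the genes were level. Siglech, another plasmacytoid dendritic cell gene, chosen after its values were seen, read 5.71, 5.79 and 6.09 in knockout, against 5.73, 5.85 and 5.72 in wildtype. It does not stand for its list. Of the 25 dendritic cell marker probe sets, 18 had a difference above 0 and 7 below, where 44.6% of single-gene probe sets lay below. Ccr9 1421920_a_at, from that list, read 9.24, 5.18 and 7.89 in knockout, against 3.46, 4.69 and 4.36 in wildtype. The other Ccr9 probe sets differed by between -1.59 and 0.66.

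Wildtype replicate 3 added height to the wildtype side of most, but not all, effectors. It was above the mean of wildtype replicates 1 and 2 in 10 of the 12 probe sets, where 51% of single-gene probe sets were, and it was the highest of all 6 arrays in 6 of the 12, where 15.3% were. The median gap to the other wildtype arrays was 0.77, beside 0.01 over all single-gene probe sets. For 3 probe sets the gap exceeded 2, where 4.2% of single-gene probe sets did. These were Usp18 at 4.86, Rsad2 1421009_at at 2.66 and Ifit1 at 2.64. The gap was 1.40 for Rsad2 1421008_at and 0.60 for Rsad2 1436058_at. It was 1.18 and 0.94 for the brighter and the dimmer Rtp4 probe set. Ifit2, Bst2 and Cmpk2 1450484_a_at had gaps of 0.11, 0.21 and 0.10. Wildtype replicate 3 was below the other wildtype arrays for Ifit3, at -0.78, and for Cmpk2 1422095_a_at, at -0.47.

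Set against its own group, wildtype replicate 3 lay farther from the rest on these genes than each of the other 5 arrays did. The median over the 12 probe sets of an array minus the mean of the other arrays of its genotype was -0.15, -0.15 and 0.04 in knockout replicates 1 to 3 and -0.39, -0.44 and 0.77 in wildtype replicates 1 to 3. Over all single-gene probe sets the same medians ran from -0.14 to 0.12. Summed log2 levels of the 12 probe sets were 62.0, 63.9 and 62.0 in knockout, against 70.9, 66.7 and 82.3 in wildtype. All 3 wildtype sums were above all 3 knockout sums, with wildtype replicate 2 the closest to them.

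**Figure D2:**
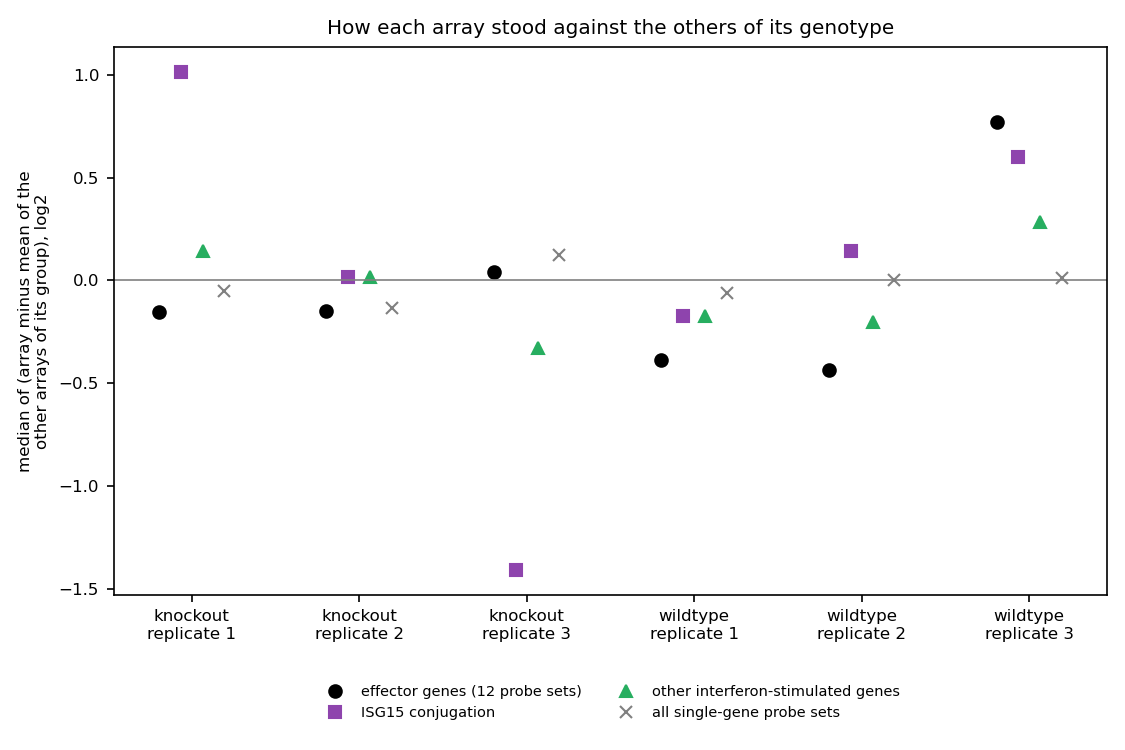
For each array, the median over a gene list of its log2 value minus the mean of the other arrays of the same genotype (vertical axis), for the 12 effector probe sets, the ISG15 conjugation enzymes, other interferon-stimulated genes and all single-gene probe sets. Wildtype replicate 3 is highest for the effectors, at 0.77, while knockout replicates 1 and 3 are far apart for the conjugation enzymes, at 1.02 and -1.41.

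Without wildtype replicate 3 the family median stayed below 0 while several single differences shrank. The median over the 12 probe sets was -0.73, with 8 below 0 and 4 above, beside 0.07 over all single-gene probe sets, of which 43.7% lay below 0. For comparison, the median was -0.67 without wildtype replicate 1 and -1.03 without wildtype replicate 2, and between -0.76 and -0.65 without 1 of the knockout arrays. In limma 0 of the 12 passed without wildtype replicate 3 (smallest adjusted p 0.945), as did 0 of all 45037 probe sets (0%). At an unadjusted p under 0.05, 1 of the 12 was lower and 0 higher, where 2.62% and 1.65% of single-gene probe sets were.

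By construction, leaving out wildtype replicate 3 shifts each difference by a fixed share of its gap. Usp18 differed by -2.43 with wildtype replicate 3 and by -0.81 without it (SE 0.99, interval -3.28 to 1.65). Ifit1 differed by -0.91 with it and by -0.03 without it (SE 0.90). Rsad2 1421009_at differed by -1.88 with it and by -0.99 without it (SE 0.65), and Rsad2 1421008_at turned to 0.36 (SE 0.35). Leaving the array out also narrowed the standard error in 5 of the 12 probe sets, these 4 and the dimmer Rtp4 probe set, although fewer arrays were used.

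Rsad2 1436058_at differed by -2.59 (SE 0.66, interval -4.23 to -0.94), with an unadjusted p of 0.00919. Its lowest value in wildtype replicates 1 and 2 still lay 1.52 above the highest knockout array. Ifit2 differed by -1.47 (SE 0.76) and Cmpk2 1450484_a_at by -0.83 (SE 0.49). Ifit3 and Cmpk2 1422095_a_at moved away from 0, to -1.20 (SE 0.66) and -0.65 (SE 0.35). Knockout arrays lay below both remaining wildtype arrays in 4 of the 12 probe sets, where 8.71% of single-gene probe sets did, and the added one was Ifit3. The brighter Rtp4 probe set differed by 0.36 with wildtype replicate 3 and by 0.76 without it. The dimmer one differed by 0.26 with it and by 0.57 without it. Bst2 differed by 0.64 with it and by 0.71 without it.

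**Figure D3:**
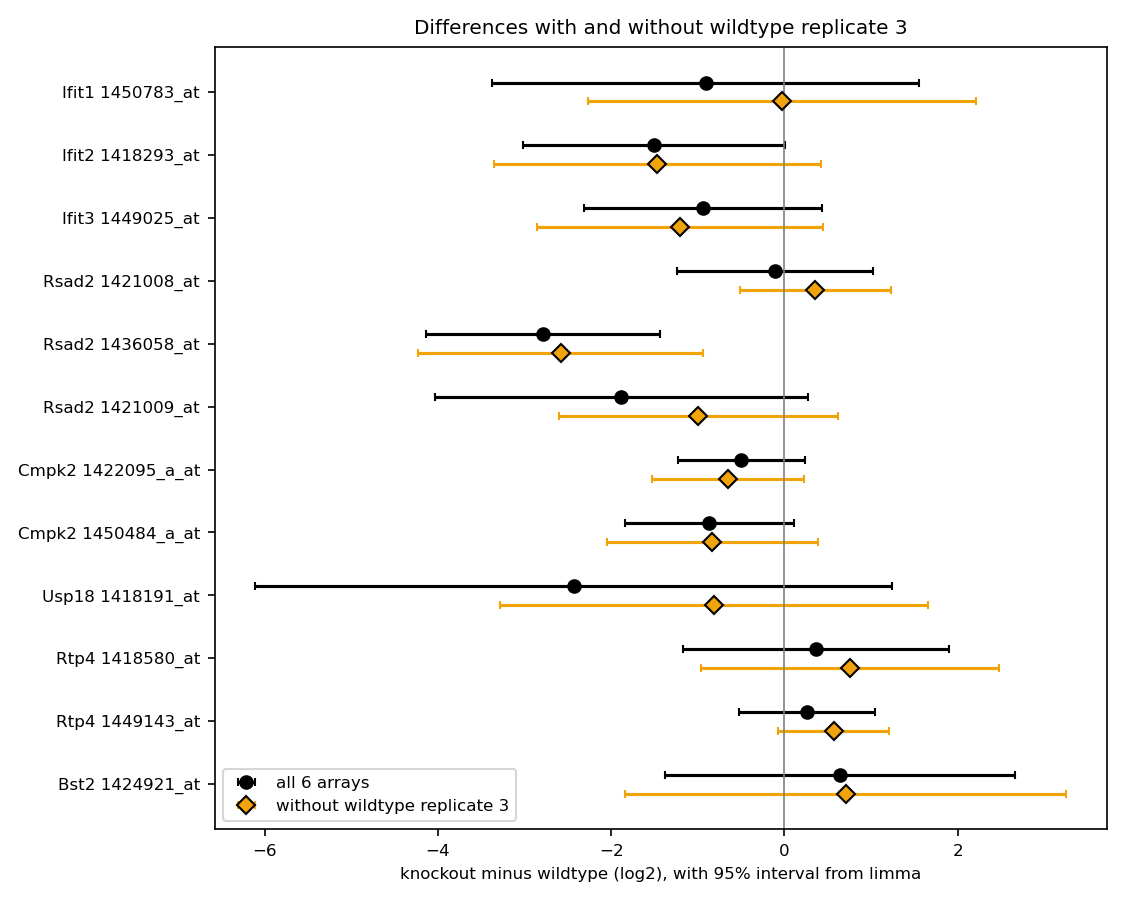
Knockout minus wildtype difference in log2 expression (horizontal axis) of the 12 effector probe sets with 95% intervals from limma, over all 6 arrays (black circles) and without wildtype replicate 3 (orange diamonds). Only the interval of Rsad2 1436058_at excludes 0 in both fits, and the Usp18 estimate is -2.43 with all arrays and -0.81 without that array.

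Wildtype replicate 3 shared its high Xist level with knockout replicate 1, which allowed a comparison within arrays of 1 Xist pattern. Wildtype replicate 1 was kept with the low-Xist arrays, although it read 7.60 in Xist 1427263_at. Y-linked Eif2s3y read 3.96, 8.23 and 7.06 in knockout, against 9.95, 8.68 and 3.71 in wildtype, in 1417210_at. Y-linked Kdm5d 1424903_at read 2.36, 2.44 and 2.47, against 5.24, 5.49 and 2.37. The part of sex in the results was not tested. The median over the 12 probe sets of knockout replicate 1 minus wildtype replicate 3 was -0.92. Among the other arrays, knockout replicates 2 and 3 minus wildtype replicates 1 and 2, it was -0.67. Rsad2 1436058_at differed by -3.43 within the high-Xist pair and by -2.47 among the low-Xist arrays. Ifit2 differed by -2.06 and -1.23, and Cmpk2 1422095_a_at by -0.28 and -0.61. Usp18 differed by -5.83 and -0.73. In 5 of the 12 probe sets the direction was not shared. Ifit1 differed by -3.69 within the high-Xist pair and by 0.48 among the low-Xist arrays, Rsad2 1421008_at by -1.13 and 0.41, and Ifit3 by 0.22 and -1.53. The dimmer Rtp4 probe set differed by -0.48 and 0.62, and Bst2 by -0.51 and 1.22. The high-Xist pair is 1 array a group, and these values have no test.

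The enzymes that attach ISG15 to proteins had lower group means in knockout, as Usp18 did, and within knockout the arrays were far apart. Single arrays did not always follow Usp18: wildtype replicate 2, its lowest array at 3.09, was the highest for Ube2l6. Uba7 activates ISG15, Ube2l6 carries it, Herc6 is its main ligase in mice, and Trim25, a ubiquitin ligase of RNA sensing, has also been described as an ISG15 ligase. All 11 probe sets of these 4 genes had a difference below 0, where 44.6% of single-gene probe sets did. The median of the 11 was -1.46, and 0 passed over all probe sets. Knockout and wildtype did not overlap in 4 of the 11, each lower in knockout, where 4.48% of single-gene probe sets did so. Ube2l6 read 4.85, 5.70 and 3.86 in knockout, against 6.76, 7.80 and 6.68 in wildtype, a difference of -2.28 (SE 0.62, adjusted p = 0.906 in limma). Uba7 1426970_a_at read 9.09, 9.19 and 8.77 in knockout, against 10.51, 9.57 and 9.99 in wildtype, a difference of -1.01 (SE 0.38). The other Uba7 probe sets overlapped and differed by -1.46 and -0.39.

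Herc6 and Trim25 were described to cover every gene of the list. Herc6 had 4 probe sets with differences between -2.86 and -1.65, of which 1 separated the groups. Herc6 1438037_at read 5.65, 3.44 and 5.81 in knockout, against 9.15, 6.00 and 6.77 in wildtype. In Herc6 1432026_a_at knockout replicate 2 and wildtype replicate 3 both read 8.01, while the other knockout arrays read 3.57 and 2.96. Without wildtype replicate 3 the median of the 11 probe sets was -1.17, with 10 below 0, where 43.7% of single-gene probe sets were. The 1 that turned was Trim25 1426415_a_at, at 0.73, in which wildtype replicate 3 read 10.01. Ube2l6 differed by -2.47 and Uba7 1426970_a_at by -1.02 without that array. Wildtype replicate 3 was the highest array in 7 of the 11, where it was in 15.3% of single-gene probe sets. Set against the other knockout arrays, the median of the 11 was highest in knockout replicate 1 and lowest in knockout replicate 3, and the median difference was -0.94 without knockout replicate 3 and -2.06 without knockout replicate 1.

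**Figure D4:**
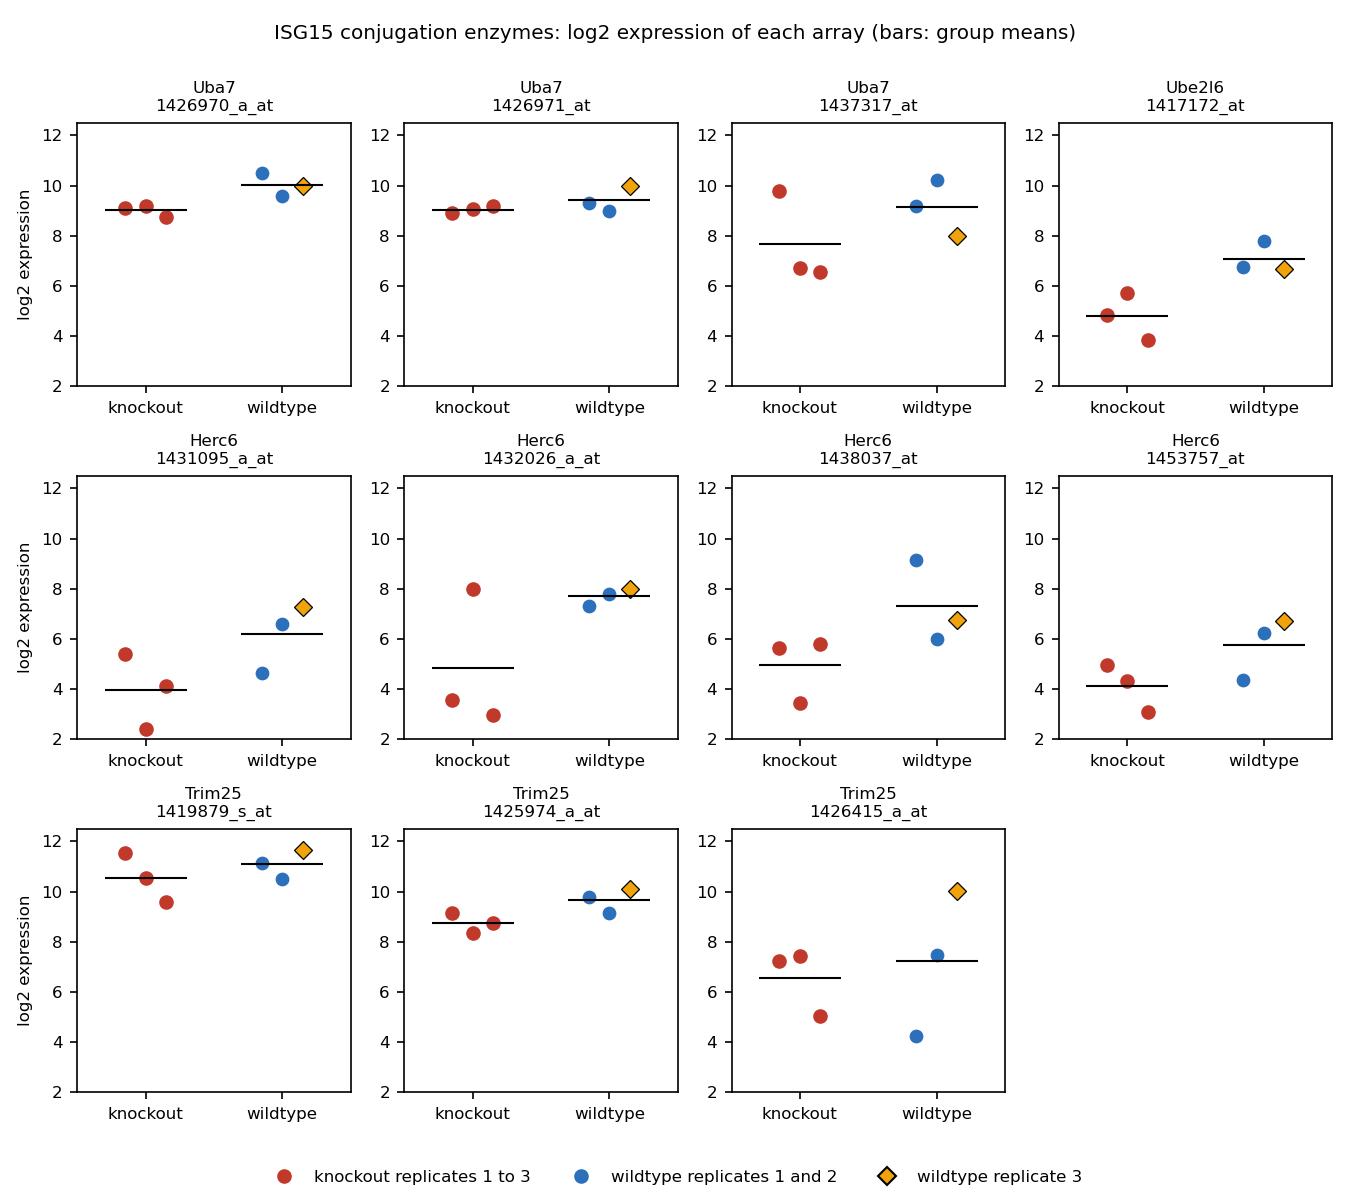
Log2 expression (vertical axis) of the 11 probe sets of the ISG15 conjugation enzymes in knockout arrays (left, red) and wildtype arrays (right, blue), with wildtype replicate 3 as an orange diamond and bars for group means. All 11 knockout means lie below the wildtype means, and the groups are apart in 4 panels.

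Other antiviral interferon-stimulated genes had a median below 0 of smaller size. Of 49 listed genes 47 were measured by 85 probe sets, with a median difference of -0.26. Differences were below 0 in 55 and above in 30, where 44.6% of single-gene probe sets were below. Groups did not overlap in 11 of the 85, all lower in knockout, where 4.48% of single-gene probe sets were. At an unadjusted p under 0.05, 8 of the 85 were lower and 1 higher, where 2.42% of single-gene probe sets were lower and 2.25% higher, and 0 passed after adjustment in limma. Wildtype replicate 3 was the highest array in 27 of the 85 (31.8%), where it was in 15.3% of single-gene probe sets. Without it the median was -0.09, with 45 below 0, where 43.7% of single-gene probe sets were. Without knockout replicate 2 the median was -0.41. Eif2ak2, the RNA-activated kinase PKR, read 2.99, 4.82 and 5.46 in knockout, against 6.47, 7.19 and 7.18 in wildtype, in 1440866_at. Its other probe sets differed by 0.78 and -0.57. Samhd1, which breaks down deoxynucleotides, read 8.91, 8.47 and 8.01 in knockout, against 9.54, 9.95 and 9.63 in wildtype, in 1418131_at. Its 4 other probe sets differed by between -0.03 and 0.64.

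Genes upstream of the effectors had medians nearer to 0, on both sides of it. The interferon ligands had a median difference of 0.18 over 10 probe sets, and of 0.08 without knockout replicate 3. Interferon beta, Ifnb1, read 4.34, 4.01 and 4.04 in knockout, against 3.60, 3.64 and 3.98 in wildtype, all under the array medians, and Ifna2 differed by 0.18. The signalling genes had a median of -0.14 over 30 probe sets, with 20 below 0, where 44.6% of single-gene probe sets were. Wildtype replicate 3 was highest in 6 of the 30 (20%), near its 15.3% over all single-gene probe sets. The median of the signalling genes was 0.11 without knockout replicate 3, -0.04 without wildtype replicate 2 and -0.23 without wildtype replicate 3. Groups did not overlap in 1 of the 30, higher in knockout, where 6.45% of single-gene probe sets were. It was Socs1, an inhibitor of JAK kinases, at 5.72, 5.36 and 5.30 in knockout, against 4.27, 4.34 and 4.76 in wildtype, a difference of 1.004 (SE 0.31). Tyk2 1417306_at differed by -1.09 (SE 0.57). Irf9, the DNA-binding part of that transcription factor complex, read 7.07, 9.004 and 5.25 in knockout, against 8.21, 7.80 and 8.89 in wildtype. Irf7, itself interferon-induced, read 5.89, 6.76 and 5.97 in knockout, against 5.78, 5.78 and 6.14 in wildtype. These last 2 genes were chosen after their values were seen.

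The nucleic acid sensing genes had a median difference of -0.13 over 23 probe sets, which was -0.09 without knockout replicate 2. It lay between -0.29 and -0.28 without knockout replicate 3, wildtype replicate 1 or wildtype replicate 2. Mavs, the mitochondrial adaptor of RNA sensing, read 3.00, 4.82 and 2.96 in knockout, against 4.84, 5.70 and 6.69 in wildtype, in 1451176_at, whereas its other probe set differed by 0.53. Sting1, the adaptor of DNA sensing, read 6.77, 6.13 and 6.44 in knockout, against 8.08, 8.14 and 7.15 in wildtype, in 1427911_at, and differed by -0.71 in its other probe set. The interferon-gamma inducible GTPases and class II genes had a median of -0.30 over 22 probe sets, with H2-Eb1 at -2.56 and Irgm1 at -1.60, and leaving out knockout replicate 1 gave a median of -0.77. It was -0.16 without wildtype replicate 3, -0.20 without wildtype replicate 1 and -0.52 without wildtype replicate 2. In each of these 4 lists 0 probe sets passed after adjustment in limma.

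Likeness of array patterns to the effectors was the mean absolute difference between centred log2 profiles over the 6 arrays, among 10162 other genes above the median level. Nearest to the mean profile of the 8 effector genes were Kmt5c (0.127), Tmem177 (0.158), Hdlbp (0.167), Tnfrsf12a (0.181) and Ttll12 (0.182), where the median gene lay at 0.781. Kmt5c, a histone methyltransferase, read 7.09, 7.22 and 6.69 in knockout, against 7.55, 7.39 and 8.50 in wildtype, and so shared the high wildtype replicate 3. Nearest to Rsad2 1436058_at were Thbs1 (0.296), Etv5 (0.327), Gfi1b (0.350), Cox16 (0.379) and 4930515G01Rik (0.384), where the median gene lay at 1.46. With 6 arrays and 10162 genes compared, near profiles are a description only.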

How the data were processed

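RNA from sorted cells was amplified across whole transcripts before hybridisation, 1 array per sample, per the labels' protocols. The log2 values were deposited by the authors. The submitters' processing notes name RMA, Partek and Affymetrix Expression Console without versions or roles, and the log2 scale was read from the values. RMA compresses differences of dim probe sets.

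Of 45037 probe sets, 34945 named 1 gene, 932 several and 9160 none in the platform annotation used; 34741 matched RefSeq by Entrez number. Groups came from sample titles. Knockout minus wildtype was fitted on all 45037 probe sets in limma 3.58.1 under R 4.3.3 (lmFit, then eBayes with trend), two-sided, with Benjamini-Hochberg adjustment and no filter, and was tested on simulated data. Members and lists were chosen with earlier results of these data known. The named genes were all member probe sets, Irf8 and the 5 nearest profiles to each target. The 2 genes of smallest unadjusted p were also named in each pathway list and in the sort marker and dendritic cell marker lists. Herc6, Trim25, Cd48, Cd34, Kit, Slamf1, Siglech, Irf7, Irf9, Zfp229, Xist, Eif2s3y and Kdm5d were named outside this rule, after their values were seen. Alternatives covered moderation, weights, scaling, level, probe set choice, a replicate block, an Xist term and leaving out each array. Same-numbered arrays did not deviate together (correlations -0.014, 0.004 and 0.003). The number of arrays limits precision. Tables were made with pandas 2.3.3 and numpy 2.4.6 in Python 3.11.15, and figures with matplotlib 3.10.9.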

Additional observations from a re-analysis of the deposited data

How the results depend on the processing

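Under 15 alternatives to the fit, 0 effector probe sets passed the threshold in limma, with a smallest adjusted p of 0.563. The pathway lists also had 0, as did all probe sets except that 1 gene, Zfp229, singled out after its value was seen, passed (adjusted p = 0.047) when probe sets were averaged by gene. The effector median of -0.89 ranged from -1.03 to -0.65 when each array was left out, and was -1.504 over the 7 probe sets above the median level, where fewer probe sets entered. It was -0.90 after quantile normalization. With the replicate block it stayed at -0.89, as it must by construction with balanced groups, and there were 0 calls. The labels do not say whether arrays of equal number were paired. Of 167 single differences under these alternatives 163 kept their direction. The 4 that turned were Rtp4 1418580_at without knockout replicate 1 (-0.0726), Rsad2 1421008_at without knockout replicate 2 (0.09) or wildtype replicate 3 (0.36), and Bst2 without wildtype replicate 1 (-0.0593). Left out in turn, the arrays gave ranges of -0.0726 to 0.76, -0.39 to 0.36 and -0.0593 to 1.27 for these 3 probe sets. Ranges were -4.02 to -0.81 for Usp18, -1.72 to -0.03 for Ifit1, -2.12 to -1.13 for Ifit2 and -1.27 to -0.55 for Ifit3. They were -2.53 to -0.99 for Rsad2 1421009_at, -3.14 to -2.55 for Rsad2 1436058_at, -0.65 to -0.32 for Cmpk2 1422095_a_at, -1.27 to -0.50 for Cmpk2 1450484_a_at and 0.06 to 0.57 for Rtp4 1449143_at. With the ETS-IRF element in place of the response element core, 1 gene had a promoter match, a different motif by construction. Signal near the array medians limits the dim probe sets of Rsad2, Cmpk2 and Rtp4. It also limits Ifit1, which read under the medians in knockout replicates 1 and 3 and wildtype replicate 2. Usp18 read under them in every knockout array and in wildtype replicate 2.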
